A study of Homo sapiens with 17 samples.

Results

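The genes described here make, break down or bind hyaluronan. They are 10 genes chosen by name, of 41040 named genes counted: the synthases HAS1, HAS2 and HAS3, the breakdown genes HYAL1, HYAL2 and CEMIP, the receptor CD44, and the binding proteins TNFAIP6, VCAN and HAPLN1. All 10 were found in the files, and 9 of them had enough counts to be tested among 16891 genes. HAS1 did not. HAPLN1 passed the filter on low counts mainly through its earlier libraries: 4 of 5 at week 0, 5 of 6 at week 1 and 1 of 6 at week 4 reached the cutoff of 0.108 CPM. The other 8 reached it in all 17 libraries.

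Hyaluronan is an unbranched sugar polymer that synthases in the plasma membrane build from a pair of nucleotide sugars and extrude into the matrix. Fibroblasts are a main source of it in lung and skin, and the chain is continually cut by hyaluronidases and by CEMIP-dependent breakdown. Long chains carry binding proteins such as versican, which is locked in place by link proteins, and are held at the cell surface by CD44. TNFAIP6, also called TSG-6, transfers heavy chains of the inter-alpha-trypsin inhibitor family onto hyaluronan, and the pentraxin PTX3 can then cross-link the decorated chains.

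The cells were IMR-90, human diploid fibroblasts of fetal lung origin with no engineered allele in the labels, and gene expression was read by bulk RNA-seq. The week 0 group (n = 5 libraries, day 0) held untreated cells. Its libraries are numbered 1, 3, 4, 5 and 6 in the labels, and their values are listed in that order. The week 1 (n = 6, day 7) and week 4 (n = 6, day 28) groups had been given etoposide, a topoisomerase II poison, at 20 µM for 48 h and were then kept without it. Since the only untreated libraries are those of week 0, etoposide and time in culture cannot be told apart. All libraries came from a single cell line, and the labels do not say whether replicates were separate cultures, so the spread behind each p-value is that between libraries and may be technical. In bulk RNA, fewer cells that use a gene and less RNA of it per cell cannot be told apart.

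Libraries held 77.2 to 102.8 M counts on named genes. The cell cycle inhibitor CDKN1A averaged 284, 2140.4 and 1276 CPM (counts scaled to a common library size) at week 0, week 1 and week 4, the proliferation marker MKI67 410.3, 42.7 and 66.5 CPM, and the lamin gene LMNB1 147, 9.83 and 18.4 CPM. The summed level of 12 fibroblast markers was 34636 to 41016 CPM at week 0, 44821 to 47187 CPM at week 1 and 57875 to 61455 CPM at week 4. Of 8 epithelial markers, 5 (EPCAM, CDH1, KRT5, SFTPB and SFTPC) stayed under 1 CPM in every library, while the list's sum, carried by KRT18, KRT8 and KRT19, was 65.0 to 71.5, 235 to 275 and 193 to 213 CPM. All 6 leukocyte markers were under 1 CPM in every library. Of 6 endothelial markers, only 2 (CDH5 and CLDN5) were, and the highest were TEK, KDR and VWF. The endothelial sum was 83.9 to 103 CPM at week 0, 58.3 to 62.2 CPM at week 1 and 52.1 to 76.6 CPM at week 4. The smooth muscle and pericyte sum was 662 to 728, 564 to 591 and 462 to 499 CPM. The part of these marker levels in the results was not tested.

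Libraries 1 and 4 of week 0 stood apart from the other 3 of their group. Ribosomal protein genes took 5.95% and 5.18% of their counts, against 3.17% to 3.84% in the other week 0 libraries and 3.31% to 3.93% at week 1 and week 4. The median distance of a gene from its group median was 0.139 and 0.140 on the log2 scale in these 2 libraries, and 0.0278 to 0.0630 in the other week 0 libraries. Results for single genes that rest on them are given with and without them, or with a range over alternative fits. Ratios and levels per kb are given with them only.

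The promoters of CEMIP and TNFAIP6 are shown because, of the 9 tested genes, CEMIP rose most and TNFAIP6 fell most between week 0 and week 1. Each line gives the 250 bases before the transcription start, 5′ to 3′, from RefSeq (GRCh38.p14). Capitals mark a TATA box (TATAAA) in CEMIP and an AP-1 motif (TGANTCA) in TNFAIP6.
CEMIP: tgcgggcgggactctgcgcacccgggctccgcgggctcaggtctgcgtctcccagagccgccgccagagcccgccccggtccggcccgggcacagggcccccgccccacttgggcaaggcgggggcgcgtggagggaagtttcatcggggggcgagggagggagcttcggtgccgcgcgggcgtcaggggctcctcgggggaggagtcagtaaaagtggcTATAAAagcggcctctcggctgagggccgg
TNFAIP6: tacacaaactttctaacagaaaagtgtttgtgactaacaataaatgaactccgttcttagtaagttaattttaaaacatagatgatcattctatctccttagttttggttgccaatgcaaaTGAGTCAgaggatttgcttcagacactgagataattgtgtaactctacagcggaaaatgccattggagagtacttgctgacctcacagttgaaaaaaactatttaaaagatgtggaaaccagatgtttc

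The CEMIP window is chr15:80779120-80779369 and the TNFAIP6 window chr2:151357342-151357591, both on the plus strand. The TATA box of CEMIP began 30 bases before the start, and the AP-1 motif of TNFAIP6 129 bases before it. The windows differed in base composition, with 74.4% G and C in CEMIP and 34.4% in TNFAIP6, against a median of 58.0% over 35116 promoters of the same length. A search on both strands covered AP-1 (TGANTCA), the TATA box (TATAAA), the GC box (GGGCGG), the E-box (CACGTG) and the kappaB motif in the 9 of the 10 genes that matched the promoter table, all but HAS2. AP-1 was found in 1 of the 9 (TNFAIP6) and in 6.57% of all promoters. The TATA box was found in 1 of the 9 (CEMIP) and in 10.7% of all. The GC box was found in 6 of the 9 and in 42.6% of all, with 3 copies in the CEMIP window. The E-box was found in 1 of the 9 (HAS3) and in 6.34% of all, and the kappaB motif in none of the 9 and in 5.21% of all. These matches describe letters in a window and not sites of binding.

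The 10 genes did not move together. At week 1 the breakdown gene CEMIP and the receptor CD44 were at their highest and TNFAIP6 was at its lowest, while at week 4 the synthase HAS2 and the proteoglycan VCAN were at their highest. A gene was called when its adjusted p was under 0.05 over all tested genes. Week 1 against week 0, 4 of the 9 rose and 3 fell, where 66.9% of all tested genes were called (32.9% higher and 34.0% lower). Week 4 against week 0, 6 rose and 3 fell, where 67.6% were called (33.9% higher and 33.7% lower). Week 4 against week 1, 3 rose and 4 fell, where 40.5% were called (21.8% higher and 18.6% lower). HAPLN1 is counted among those that fell in the last 2 comparisons, and because of how it passed the filter its fall is not read as a result. Without it, 2 and 3 of 8 genes fell there. In the first comparison the share of called genes is near that of all genes and says nothing particular about these genes, and in the other 2 comparisons the difference from the background was not tested. The median log2 difference of the 9 genes was 0.37, 0.40 and -0.21 in the 3 comparisons, against -0.02, 0.00 and 0.01 over all tested genes. The libraries of the groups compared did not overlap for 5, 8 and 6 of the 9 genes, and for 48.7%, 49.0% and 30.2% of all tested genes. The first 2 comparisons share the week 0 libraries.

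**Figure D1:**
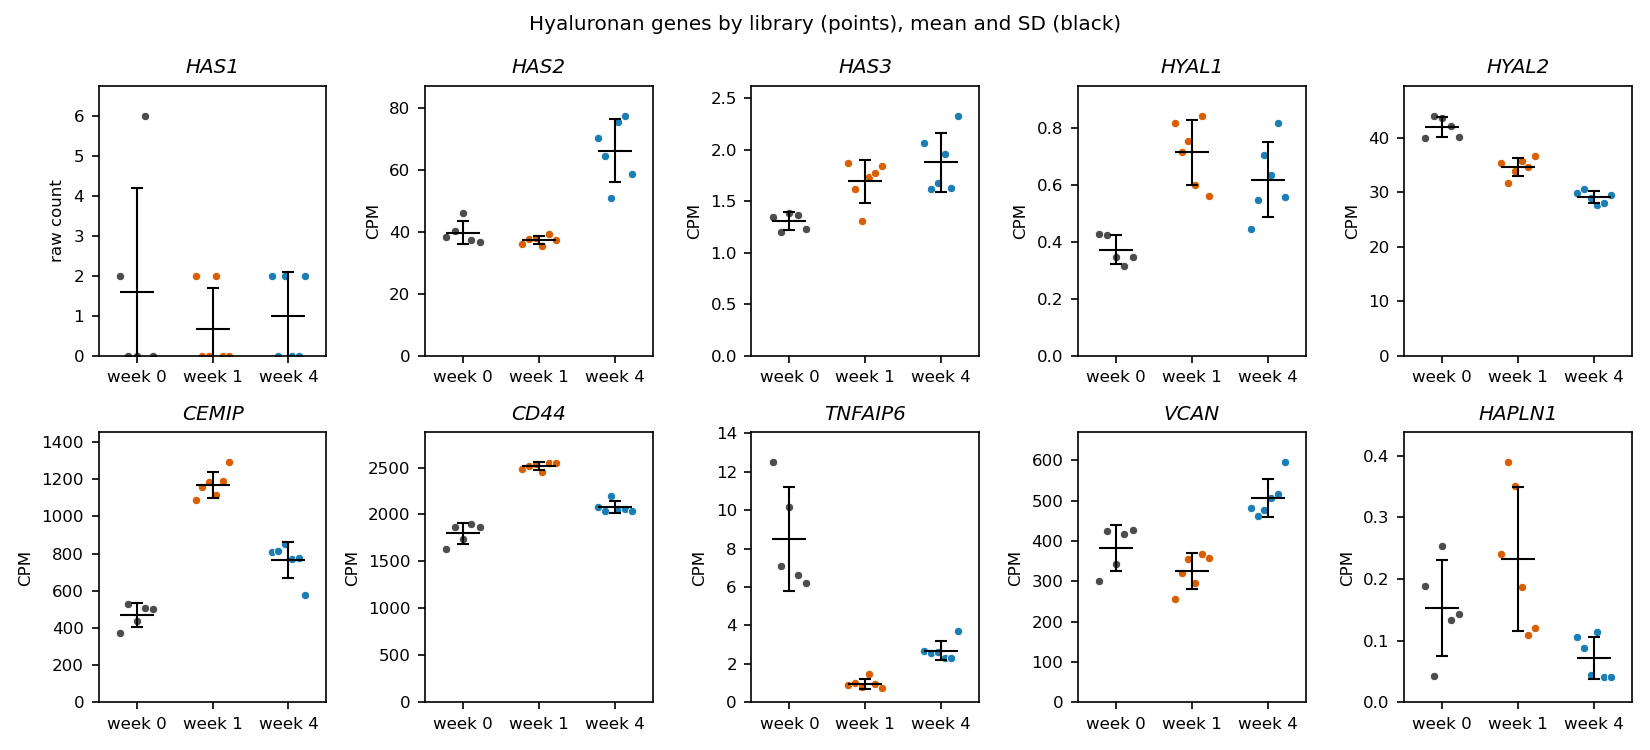
Level of each of the 10 genes in every library (points), in CPM on the vertical axis (raw counts for HAS1), at week 0 (n = 5), week 1 (n = 6) and week 4 (n = 6), with the mean and SD in black. CEMIP and CD44 peak at week 1, TNFAIP6 is lowest there, and HAS2 and VCAN are highest at week 4.

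Of the synthases, HAS2 carried nearly all of the expression. HAS2 makes long hyaluronan chains and is the main synthase of mesenchymal cells. Its level in the week 0 libraries was 38.5, 40.3, 46.2, 37.3 and 36.8 CPM. At week 1 it was 35.5 CPM in the lowest library, 37.7 CPM at the median and 39.5 CPM in the highest, and at week 4 it was 51.1, 67.5 and 77.5 CPM. Every week 4 library thus lay above every earlier one, while week 0 and week 1 overlapped. The means were 39.8 ± 3.80 (SD, n = 5), 37.4 ± 1.41 (n = 6) and 66.4 ± 10.2 CPM (n = 6). HAS2 rose 1.67-fold from week 0 to week 4 (log2 fold change 0.74 ± 0.09 SE, adjusted p = 9.4e-08) and 1.77-fold from week 1 to week 4 (adjusted p = 4.1e-08). The week 1 difference from week 0 was -0.09 ± 0.08 on the log2 scale (adjusted p = 0.36).

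HAS3, a synthase that makes shorter chains, was low. It was 1.35, 1.20, 1.39, 1.37 and 1.23 CPM in the week 0 libraries. At week 1 its lowest, median and highest libraries were at 1.31, 1.76 and 1.87 CPM, and at week 4 at 1.62, 1.82 and 2.33 CPM. The week 1 libraries overlapped with week 0 through a single low library, and the week 4 libraries did not overlap with week 0. HAS3 rose 1.29-fold at week 1 (log2 0.37 ± 0.13, adjusted p = 0.013) and 1.43-fold at week 4 (0.52 ± 0.13, adjusted p = 9.6e-04), with no call between week 1 and week 4 (0.15 ± 0.12, adjusted p = 0.34). Its week 1 call was lost when only libraries whose files hold no gene length were used (adjusted p = 0.11). At week 0 these were libraries 1, 3 and 4.

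HAS1, the third synthase, was at the limit of detection. The week 0 libraries held 2, 0, 0, 6 and 0 counts of it, the week 1 libraries 2, 0, 0, 2, 0 and 0, and the week 4 libraries 2, 0, 2, 0, 0 and 2. A library with 0 counts still allows up to 3 counts, or 0.0292 to 0.0389 CPM across libraries, a limit that covers counting error only. No difference in HAS1 was detectable at this depth. On a scale corrected for length (CPM per kb of exon), HAS2 made up 97.3% ± 0.342 of the summed synthase level at week 0, 96.4% ± 0.505 at week 1 and 97.7% ± 0.539 at week 4 (SD, n = 5, 6 and 6). HAS2-AS1, an antisense RNA of HAS2, averaged 0.742, 0.796 and 0.734 CPM, and its adjusted p was 0.75, 0.98 and 0.77 in the 3 comparisons. HAS2-AS1 shares 4.80% of the exon bases of HAS2, and since the strand setting of the counting is not given, reads there cannot be assigned.

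The 3 breakdown genes moved in different directions. CEMIP encodes a hyaluronan-binding protein through which skin fibroblasts cut hyaluronan. The week 0 libraries were at 374, 527, 435, 506 and 501 CPM. Its lowest, median and highest libraries were at 1089.9, 1170.0 and 1289 CPM at week 1, and at 575, 792 and 853 CPM at week 4. The 3 groups did not overlap: all week 1 libraries were above all week 4 libraries, and these were above all week 0 libraries. CEMIP rose 2.50-fold at week 1 (log2 1.32 ± 0.09, adjusted p = 1.6e-11) and was still 1.63-fold higher at week 4 than at week 0 (0.71 ± 0.09, adjusted p = 3.6e-07). It fell by 0.61 ± 0.08 on the log2 scale between week 1 and week 4 (adjusted p = 4.7e-06). Without week 0 libraries 1 and 4, which were the lowest of their group for CEMIP, the week 0 mean was 511 ± 14.3 in place of 469 ± 63.2 CPM, and the log2 fold changes were 1.19 and 0.58.

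HYAL2, a hyaluronidase anchored at the cell surface, fell at each step. It was 39.99, 44.0, 43.6, 42.1 and 40.2 CPM in the week 0 libraries. Week 1 ran from 31.8 CPM through a median of 35.0 CPM to 36.6 CPM, and week 4 from 27.8 CPM through 29.2 CPM to 30.6 CPM. No libraries overlapped between any of the groups. HYAL2 was 1.21-fold lower at week 1 (log2 -0.28 ± 0.05, adjusted p = 2.4e-05) and 1.44-fold lower at week 4 (-0.53 ± 0.05, adjusted p = 1.8e-09) than at week 0. It was 1.19-fold lower at week 4 than at week 1 (-0.25 ± 0.05, adjusted p = 1.2e-04). HYAL2 shares 11.2% of its exon bases with TUSC2 on the same strand, in GENCODE v29, so reads there could be split between these genes.

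HYAL1, the lysosomal hyaluronidase, stood at only 30 to 81 counts per library. The week 0 libraries were at 0.430, 0.426, 0.347, 0.316 and 0.347 CPM. Week 1 libraries ran from 0.562 to 0.844 CPM with a median of 0.737 CPM, and week 4 libraries from 0.448 to 0.820 CPM with a median of 0.598 CPM. Both later groups lay wholly above week 0 and overlapped with each other. HYAL1 rose 1.92-fold at week 1 (log2 0.94 ± 0.20, adjusted p = 2.2e-04) and 1.66-fold at week 4 (0.73 ± 0.20, adjusted p = 0.0024). The difference between week 4 and week 1 was -0.21 ± 0.18 (adjusted p = 0.39).

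On the scale per kb, the mix of these transcripts shifted toward CEMIP. Its share of the summed level of CEMIP, HYAL1 and HYAL2 was 86.3% ± 1.56 at week 0, 94.99% ± 0.329 at week 1 and 93.6% ± 0.952 at week 4. The ratio of CEMIP to HYAL2 was 6.47 ± 0.809, 19.6 ± 1.33 and 15.3 ± 2.03. The ratio of CEMIP to HAS2, a breakdown gene over the main synthase, was 6.60 ± 1.18 at week 0, 17.4 ± 0.886 at week 1 and 6.55 ± 1.46 at week 4. Its week 0 and week 4 means thus differed by less than their SD, and both genes were above their week 0 level at week 4. Over the week 0 libraries the ratio ran from 5.24 to 7.56. Week 0 libraries 1 and 4 were at 374 and 435 CPM of CEMIP, against a mean of 511 ± 14.3 CPM in the others. They were at 38.5 and 46.2 CPM of HAS2, against 38.1 ± 1.87 CPM. The ratio was not computed without them, so its like means at week 0 and week 4 are not read as a return. HYAL2 over HYAL1 was 79.7 ± 11.3, 34.6 ± 7.01 and 34.2 ± 8.25. These ratios are given as descriptions without a test.

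CD44, the principal hyaluronan receptor, was the most abundant of the 10 genes per kb. It was at 1635, 1863, 1737, 1899 and 1867 CPM in the week 0 libraries. At week 1 it ran from 2449 to 2548 CPM with a median of 2527 CPM, and at week 4 from 2037 to 2201 CPM with a median of 2061 CPM. The 3 groups did not overlap, and week 1 was highest. CD44 rose 1.40-fold at week 1 (log2 0.48 ± 0.04, adjusted p = 1.6e-09) and was 1.15-fold higher at week 4 than at week 0 (0.21 ± 0.04, adjusted p = 2.1e-04), with a fall of 1.21-fold between week 1 and week 4 (-0.27 ± 0.04, adjusted p = 1.3e-05). Without week 0 libraries 1 and 4, again the lowest of their group, the log2 fold changes against week 0 were 0.42 and 0.14. Isoforms of CD44 cannot be told apart in counts per gene.

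**Figure D2:**
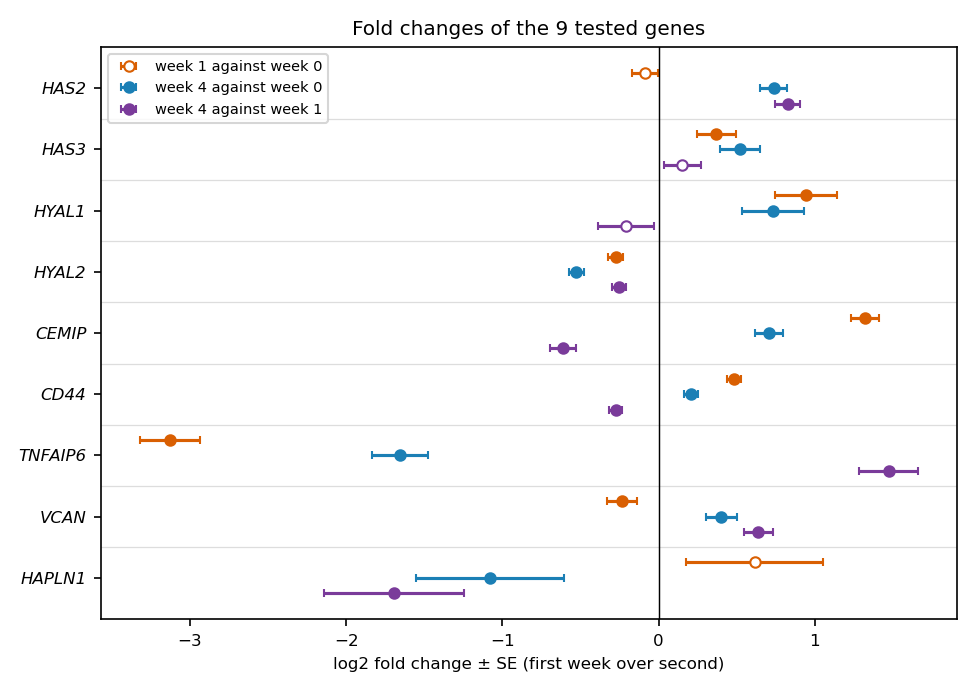
Log2 fold change (horizontal axis) with its SE (bars) for the 9 tested genes in the 3 comparisons. Filled points were called at an adjusted p under 0.05 and open points were not. TNFAIP6 lies farthest below 0 and CEMIP farthest above 0 at week 1, at -3.13 and 1.32.

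The 3 binding genes each took a different course. TNFAIP6 was at 12.5, 7.07, 10.2, 6.62 and 6.21 CPM in the week 0 libraries. At week 1 its libraries ran from 0.763 to 1.45 CPM with a median of 0.914 CPM, and at week 4 from 2.31 to 3.70 CPM with a median of 2.60 CPM. The groups did not overlap in any comparison, and week 1 was lowest. TNFAIP6 fell by 3.13 ± 0.19 on the log2 scale at week 1 (adjusted p = 2.2e-12). From week 1 to week 4 it rose 2.78-fold (log2 1.47 ± 0.19, adjusted p = 1.7e-06), and it remained below its week 0 level (-1.65 ± 0.18, adjusted p = 2.9e-08). The 2 highest week 0 libraries were libraries 1 and 4. Without them the week 0 mean was 6.64 ± 0.430 in place of 8.51 ± 2.71 CPM, and the log2 fold changes against week 0 were -2.77 and -1.30.

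VCAN encodes versican, a large proteoglycan that binds hyaluronan through its N-terminal end. It was at 302, 425, 343, 418 and 426 CPM in the week 0 libraries. Week 1 ran from 255 to 368 CPM with a median of 338 CPM, and week 4 from 461 to 594 CPM with a median of 494 CPM. Week 4 lay wholly above both other groups, and week 0 and week 1 overlapped. VCAN rose 1.32-fold from week 0 to week 4 (log2 0.40 ± 0.10, adjusted p = 9.7e-04) and 1.55-fold from week 1 to week 4 (0.64 ± 0.09, adjusted p = 9.4e-06). At week 1 it was 1.18-fold lower than at week 0 (-0.23 ± 0.10, adjusted p = 0.037). The week 1 call was lost in 10 of 28 alternatives, including upper-quartile scaling (adjusted p = 0.14). In libraries whose files hold no gene length the log2 difference was -0.06 (adjusted p = 0.63). At week 0 these were libraries 1, 3 and 4, so that fit leans on libraries 1 and 4, the lowest of their group at 302 and 343 CPM. The call was also lost without week 0 library 3, 5 or 6 or week 1 library 1, 2 or 4, each left out alone (adjusted p = 0.060 to 0.099). Without week 0 libraries 1 and 4 the log2 fold change was -0.38 (adjusted p = 3.4e-04) at week 1 and 0.25 (adjusted p = 0.013) at week 4. The antisense gene VCAN-AS1 was too low to be tested.

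HAPLN1, the link protein that stabilises binding of versican to hyaluronan, was close to the limit of detection. The week 0 libraries held 18, 4, 22, 14 and 14 counts, those of week 1 between 9 and 32, and those of week 4 between 4 and 10. The means were 0.153 ± 0.0778, 0.233 ± 0.117 and 0.0721 ± 0.0341 CPM, and all 3 groups overlapped. Its log2 difference from week 0 was 0.62 ± 0.44 at week 1 (adjusted p = 0.22). HAPLN1 entered the test mainly through week 0 and week 1, where it was higher, so its week 4 differences are given as values that support nothing. They were -1.69 ± 0.45 against week 1 (adjusted p = 0.0043) and -1.08 ± 0.48 against week 0 (adjusted p = 0.0498). The call against week 0 was lost in 18 of 27 alternatives, among them the one without week 0 libraries 1 and 4 (-0.58, adjusted p = 0.38). Single libraries that ended it when left out were 1, 4, 5 and 6 of week 0, 1, 3 and 4 of week 1 and 2, 3, 5 and 6 of week 4 (adjusted p = 0.051 to 0.15).

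Levels of different genes are set side by side per kb, with a single length for each gene. The lengths of the transcripts that were expressed are not known. The order of genes with close levels, such as HYAL2 and HAS2, and the size of ratios between genes are therefore descriptions only. At week 0 CD44 led with 180.2 ± 11.1 CPM per kb, followed by CEMIP at 61.5 ± 8.30, VCAN at 26.1 ± 3.90, HYAL2 at 9.49 ± 0.422, HAS2 at 9.39 ± 0.896 and TNFAIP6 at 5.39 ± 1.72 CPM per kb. HYAL2 and HAS2 did not differ there beyond their spread. HAS3 at 0.252 ± 0.0163, HYAL1 at 0.121 ± 0.0167 and HAPLN1 at 0.0246 ± 0.0126 CPM per kb formed the low end. HAS1 lay below them and overlapped with HAPLN1. At week 1 CEMIP stood at 153.5 ± 9.21 CPM per kb beside 252 ± 4.00 for CD44, while TNFAIP6 stood at 0.617 ± 0.159 CPM per kb. At that time HAS2 (8.83 ± 0.332) came before HYAL2 (7.84 ± 0.383), and the ranges of HAS3 and HYAL1 overlapped. By week 4 the gap between HAS2 and HYAL2 was wider, at 15.7 ± 2.40 and 6.58 ± 0.253 CPM per kb. CD44, CEMIP and VCAN were the 3 highest in each group, in that order, with VCAN at 22.2 ± 2.97 CPM per kb at week 1 and 34.5 ± 3.26 at week 4. The ratio of VCAN to HAS2 was 2.81 ± 0.563, 2.50 ± 0.271 and 2.25 ± 0.437 in the 3 groups, and was not computed without week 0 libraries 1 and 4.

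**Figure D3:**
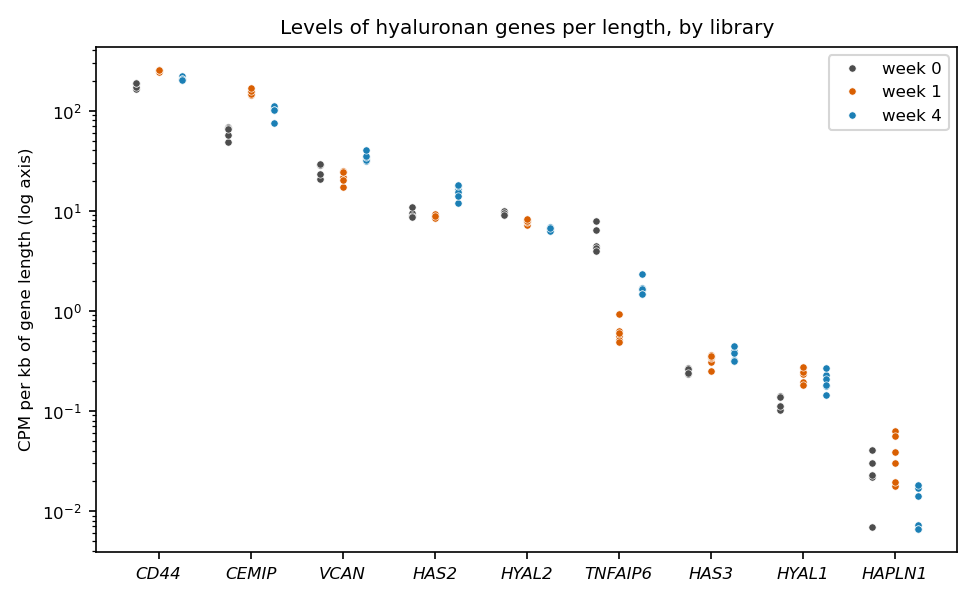
Level per kb of exon (CPM per kb, log axis) of 9 of the genes in every library at week 0, week 1 and week 4. HAS1 is left out because most of its libraries are at 0. CD44, CEMIP and VCAN are the 3 highest in each group, and TNFAIP6 drops between week 0 and week 1.

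The other genes of the pathway were read from a list of 52, of which 40 were tested. Week 1 against week 0, 19 rose and 14 fell, where 32.9% of all tested genes rose and 34.0% fell. Week 4 against week 0, 22 rose and 11 fell, where 33.9% rose and 33.7% fell. Between week 1 and week 4, 11 rose and 8 fell, where 21.8% rose and 18.6% fell. The groups did not overlap for 26, 26 and 17 of the 40, against 48.7%, 49.0% and 30.2% of all tested genes. Of the 40, 35 reached the filter's cutoff in all 17 libraries. The others include STAB1, TLR4 and BCAN, named after their values were seen, which passed mainly through groups where they were high. All of these count as risen at week 1, and TLR4 and BCAN at week 4, both against week 0. TLR4 also counts as risen from week 1 to week 4. Because of how they passed the filter, these rises are not read as results. The shares of all genes given here are the background for the counts by role that follow, which are small and were not tested against it. The median log2 differences were 0.14, 0.29 and -0.01, against -0.02, 0.00 and 0.01 over all tested genes.

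Against week 0, ITIH5 and PTX3 rose while TNFAIP6 fell. Of 7 genes of heavy chain transfer and cross-linking, 4 were tested, and 3 rose and none fell in both comparisons with week 0, where 32.9% and 33.9% of all tested genes rose. ITIH5 encodes a heavy chain of the inter-alpha-trypsin inhibitor family. It was at 0.818, 1.00, 1.16, 1.63 and 0.867 CPM in the week 0 libraries, between 10.8 and 14.9 CPM at week 1, and between 27.9 and 43.7 CPM at week 4. It rose 11.7-fold at week 1 (log2 3.55 ± 0.15, adjusted p = 3.6e-15) and 32.8-fold at week 4 (5.04 ± 0.16, adjusted p = 1.8e-17), with no overlap between groups. PTX3 was at 19.5, 19.3, 21.4, 19.7 and 19.7 CPM in the week 0 libraries, between 104 and 133 CPM at week 1, and between 166 and 191 CPM at week 4. PTX3 rose 5.87-fold (log2 2.55 ± 0.06, adjusted p = 2.6e-19) and 9.08-fold (3.18 ± 0.06, adjusted p = 2.1e-20), again with no overlap. Thus TNFAIP6 was lowest at week 1 and below week 0 at week 4, while ITIH5 and PTX3 rose at both times and were 2.80-fold and 1.55-fold higher at week 4 than at week 1.

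**Figure D4:**
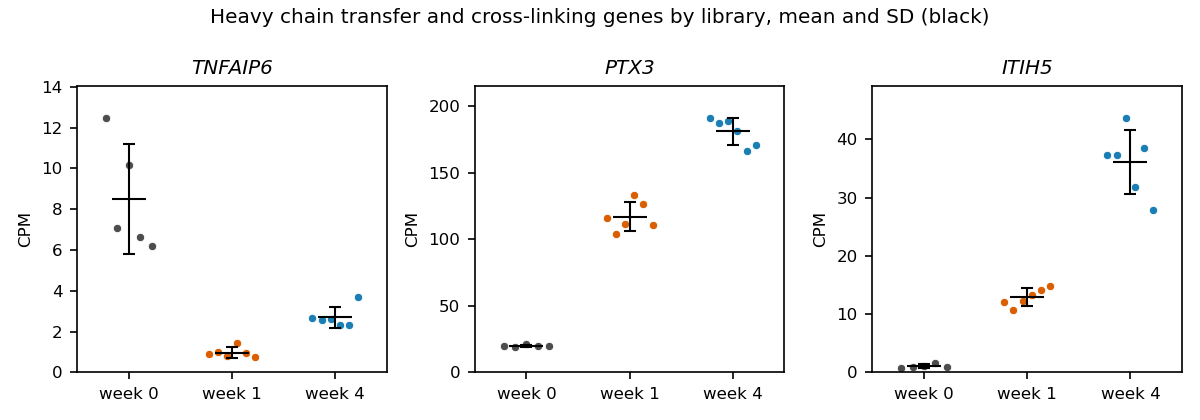
Level in CPM (vertical axes, from 0) of TNFAIP6, PTX3 and ITIH5 in every library at week 0, week 1 and week 4, with the mean and SD in black. TNFAIP6 is lowest at week 1, while PTX3 and ITIH5 rise from 19.9 and 1.09 CPM at week 0 to 181 and 36.1 CPM at week 4.

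On a list of 10 genes around the sugar precursors, 3 rose and 5 fell at week 1 against week 0. At week 4 against week 0, 4 rose and 4 fell. Of all tested genes, 66.9% and 67.6% were called. The list also holds SLC35D1 and, named after their values were seen, GNPDA1 and GNPDA2, which do not make the precursors. GNPDA2 and SLC35D1 are counted among those that fell in both comparisons, so the counts do not measure supply. Genes of the hexosamine route to UDP-N-acetylglucosamine were split. GFPT1, its first and rate-limiting enzyme, rose 1.74-fold at week 1 and 1.70-fold at week 4 (adjusted p = 4.3e-13 and 1.2e-12). PGM3 and UAP1, the last enzymes of the route, were 1.44-fold and 1.65-fold higher at week 1 and 1.51-fold and 1.35-fold higher at week 4. GNPNAT1, the acetyltransferase that acts after GFPT1 and before PGM3, was 1.24-fold and 1.39-fold lower, and its week 1 log2 difference went from -0.31 to -0.20 without week 0 libraries 1 and 4. In GENCODE v29, PGM3 shares 14.8% of its exon bases with DOP1A and GNPNAT1 35.6% with AL139317.3, both on the opposite strand. Since the strand setting is not given, reads there cannot be assigned. GFPT2 was 1.20-fold lower at week 1 and 1.39-fold higher at week 4. UGDH, which makes the other precursor UDP-glucuronic acid, averaged 96.9, 70.4 and 87.8 CPM and was 1.38-fold lower at week 1 (adjusted p = 3.2e-09) and 1.10-fold lower at week 4 (adjusted p = 0.0060). The week 4 call of UGDH was lost with upper-quartile scaling (adjusted p = 0.11). SLC35D1, a carrier of nucleotide sugars, was 1.79-fold and 1.85-fold lower (adjusted p = 2.2e-11 and 1.0e-11).

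Of 7 other breakdown genes, 5 were tested, and 4 rose and 1 fell in each comparison with week 0, beside 66.9% and 67.6% of all tested genes called in either direction. HYAL3, a further member of the hyaluronidase family, averaged 2.94, 7.88 and 6.74 CPM and rose 2.68-fold at week 1 and 2.29-fold at week 4 (adjusted p = 1.5e-12 and 3.3e-11). It shares 12.2% of its exon bases with NAA80, in GENCODE v29. HEXA, a subunit of a lysosomal hexosaminidase that trims cut chains, was 1.56-fold higher at week 1 and 1.54-fold higher at week 4 (adjusted p = 2.4e-10 and 4.3e-10). In the same annotation it shares 10.1% of its exon bases with AC009690.2 on the opposite strand and 4.89% with AC009690.1 on the same strand. The gene that fell was GUSB, the lysosomal beta-glucuronidase, by 1.66-fold at week 1 and 1.32-fold at week 4 (adjusted p = 4.6e-11 and 7.1e-07). CEMIP2, a transmembrane relative of CEMIP, averaged 95.9, 107 and 115 CPM. Its rise was 1.20-fold at week 4 (adjusted p = 0.0011), and its week 1 call (1.12-fold, adjusted p = 0.032) was lost in 6 of 28 alternatives, including those without library 1 or 4 of week 0 (adjusted p = 0.12 and 0.088) or library 5 or 6 of week 1 (0.066 and 0.076). Without week 0 libraries 1 and 4 together, CEMIP2 differed by 0.05 at week 1 (adjusted p = 0.41) and by 0.15 at week 4 (adjusted p = 0.012).

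Among other receptors, 5 of 7 were tested, with 2 higher and 2 lower at week 1 and 1 higher and 2 lower at week 4, where 66.9% and 67.6% of all tested genes were called. The higher calls were those of STAB1 and TLR4, named after their values were seen, which averaged under 1 CPM in every group. They passed the filter mainly through the group where they were high, with 0 of 5 week 0 libraries of TLR4 and 1 of 5 of STAB1 at the cutoff, so these rises support nothing. HMMR, also called RHAMM, is a hyaluronan receptor that also acts on the mitotic spindle and is highest in dividing cells. It was at 119.6, 78.6, 117, 69.8 and 71.6 CPM in the week 0 libraries, between 5.96 and 6.96 CPM at week 1, and between 5.50 and 8.02 CPM at week 4. HMMR was 14.2-fold lower at week 1 (log2 -3.83 ± 0.13, adjusted p = 1.1e-16) and 13.2-fold lower at week 4 (-3.73 ± 0.13, adjusted p = 1.9e-16), with no overlap, beside the fall of MKI67 given above. Its 2 highest week 0 libraries were libraries 1 and 4. Over 28 alternative fits, among them the one without these libraries, its log2 difference was -4.00 to -3.52 at week 1 and -3.94 to -3.41 at week 4. LYVE1, the receptor of lymphatic endothelium, held 0 to 16 counts in each library and was not tested. Of the membrane partners of CD44, NF2, which encodes merlin, was 1.95-fold higher at week 1 and 1.42-fold higher at week 4 (adjusted p = 6.7e-13 and 3.6e-08). Of the ezrin family genes, RDX was 1.40-fold and 1.39-fold lower, and EZR was 1.48-fold lower at week 4 (adjusted p = 3.8e-10) with a log2 difference of -0.03 ± 0.05 at week 1 (adjusted p = 0.52, and 0.029 with a difference of -0.10 without week 0 libraries 1 and 4). MSN, of the same family and named after its values were seen, averaged 1249, 1457 and 1354 CPM. It was 1.17-fold higher at week 1 (adjusted p = 3.2e-04) and 1.08-fold higher at week 4 (adjusted p = 0.037, with overlap). Of the 4 membrane partners, 2 rose and 1 fell at week 1, and 2 rose and 2 fell at week 4. Of all tested genes, 66.9% and 67.6% were called. The 3 sheddases of CD44 on the list, named after their values were seen, were called higher in both comparisons, where 32.9% and 33.9% of all tested genes were. ADAM10, ADAM17 and MMP14 were 1.18-fold, 1.26-fold and 1.19-fold higher at week 1 and 1.25-fold, 1.33-fold and 1.16-fold higher at week 4. ADAM17 shares 12.3% of its exon bases with IAH1 on the opposite strand, in GENCODE v29. Since the strand setting is not given, reads there cannot be assigned. Without week 0 libraries 1 and 4 the log2 difference of ADAM10 was 0.12 in place of 0.24 at week 1 and 0.21 in place of 0.32 at week 4, and that of MMP14 was 0.13 in place of 0.21 at week 4, all still called.

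**Figure D5:**
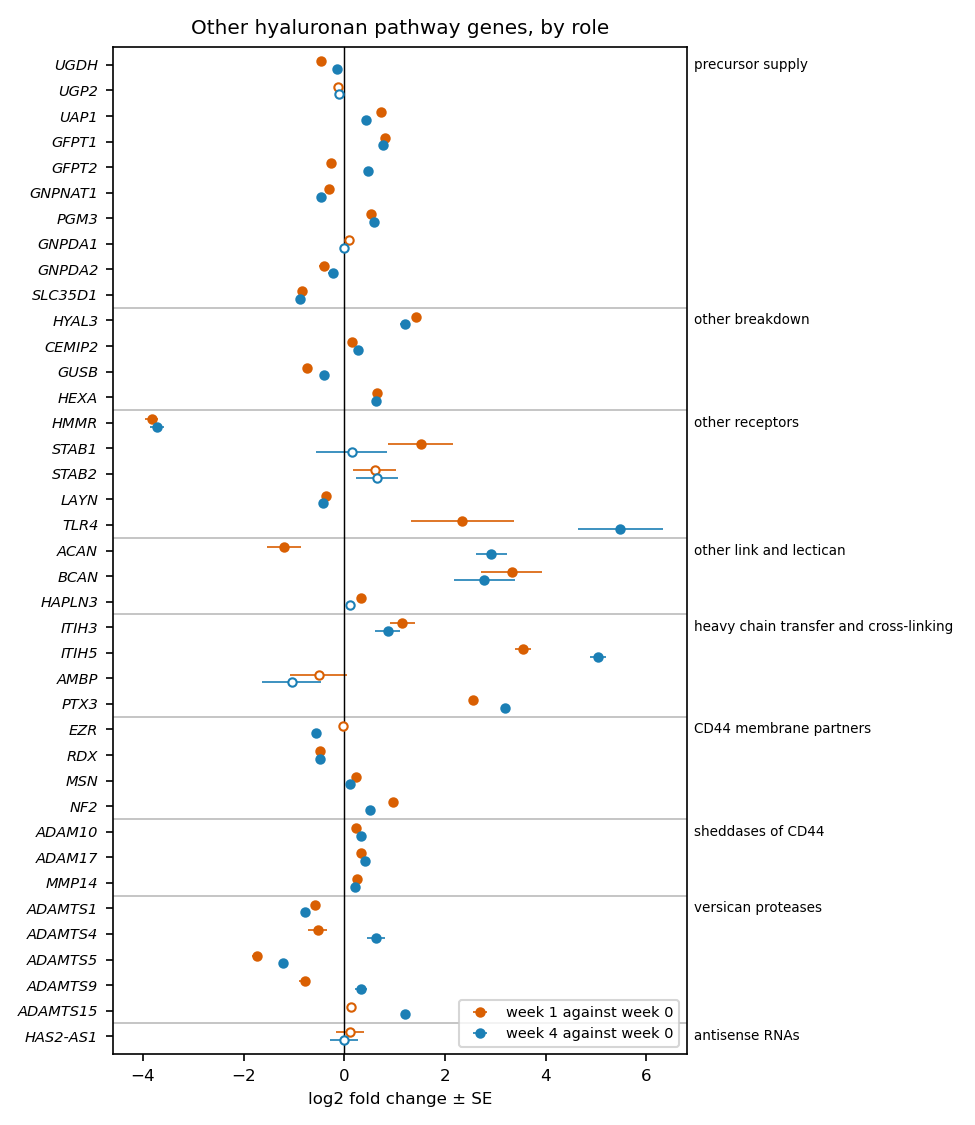
Log2 fold change against week 0 (horizontal axis) with its SE (bars) of tested pathway genes, grouped by role. Filled points were called and open points were not; HMMR lies farthest to the left, and TLR4, named here after its values were seen, lies farthest to the right at week 4 with 0 to 2 counts per library at week 0 and 6 to 84 at week 4.

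Of the other lecticans and link genes, 3 of 6 were tested. ACAN, which encodes aggrecan, the cartilage relative of versican, was at 0.681, 1.22, 1.50, 1.08 and 1.26 CPM in the week 0 libraries, between 0.316 and 0.829 CPM at week 1, and between 2.33 and 12.9 CPM at week 4. Week 4 lay above both other groups. ACAN was 7.56-fold higher at week 4 than at week 0 (log2 2.92 ± 0.30, adjusted p = 1.9e-08) and 17.3-fold higher than at week 1 (adjusted p = 9.2e-10). Its lower level at week 1 (-1.19 ± 0.33, adjusted p = 0.0033) was not called with limma-voom (adjusted p = 0.15). HAPLN3, another link protein, rose 1.25-fold at week 1 (adjusted p = 1.1e-04), and its week 4 difference from week 0 was 0.11 ± 0.06 (adjusted p = 0.13, and 0.021 with upper-quartile scaling).

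Among 6 proteases that cut versican, 5 were tested. None rose and 4 fell at week 1, while 3 were higher and 2 lower at week 4 than at week 0. From week 1 to week 4, 4 rose and 1 fell. Of all tested genes, 66.9%, 67.6% and 40.5% were called in the 3 comparisons. ADAMTS1 averaged 956, 640.5 and 554 CPM and was 1.49-fold and 1.72-fold lower than at week 0 (adjusted p = 1.2e-09 and 7.1e-12). ADAMTS5 was 3.33-fold lower at week 1 and 2.31-fold lower at week 4 (adjusted p = 7.6e-14 and 4.0e-11). ADAMTS15 averaged 22.0, 24.0 and 50.9 CPM and rose 2.31-fold at week 4 (adjusted p = 2.9e-12), with a log2 difference of 0.12 ± 0.07 at week 1 (adjusted p = 0.15, and 0.023 with upper-quartile scaling). ADAMTS9 was 1.73-fold lower at week 1 and 1.25-fold higher at week 4, and ADAMTS4, near 1 CPM, was 1.44-fold lower and 1.55-fold higher. The week 4 rise of ADAMTS9 was lost without week 0 libraries 1 and 4 (log2 0.20, adjusted p = 0.15) and was 0.21 without week 4 library 6, against 0.33 with all libraries.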

How the data were processed

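RNA-seq counts of 17 IMR-90 libraries were used, grouped by the labels' titles. The authors deposited raw counts per gene symbol for each library. Alignment with HISAT2 2.0.5.2, counting with featureCounts 1.4.6 and the genome build mm10 are stated per the submitters' processing notes. Because mm10 is a mouse build and the gene symbols are human, the build that was used is unclear, and only the RefSeq promoter windows carry coordinates. The sources used here do not give the annotation, the strand setting or the treatment of multiply mapped reads. Genes that share exon bases were found in GENCODE v29.

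A row without a gene name, at 0.221% to 0.289% of counts, was dropped. The test was edgeR 4.0.16 (R 4.3.3) with filterByExpr by group, TMM factors (0.938 to 1.11) and a quasi-likelihood fit with a mean per group over all libraries, which left 14 residual degrees of freedom and a biological coefficient of variation of 11.7%. Tests gave p-values, which were adjusted by Benjamini-Hochberg over all 16891 tested genes. SE is the log2 fold change over the square root of F. Levels are CPM on TMM library sizes, and marker sums are on library totals. Gene length came from the 4 files that hold it, those of week 0 libraries 5 and 6 and week 1 libraries 1 and 2. Without TMM factors the middle log2 difference of the tested genes (their median) was -0.18, -0.19 and -0.02 on comparing week 1 with week 0, week 4 with week 0 and week 4 with week 1, and changes are relative to the TMM scale. The lowest chi-square per gene between libraries of a group was 7.24 over 40 pairs, so none was counted as a repeat. The tests were checked on simulated data in which a small part of the genes changed, at week 1 only. A setting with as many changed genes as here was not simulated.

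Alternatives were RLE and upper-quartile factors, no filter, a filter of 5 CPM in 5 libraries, DESeq2 1.42.0, limma-voom (limma 3.58.1), the replicate number as a block, a term for files that hold gene length, only libraries without it, only the groups compared, the fit without week 0 libraries 1 and 4, and each library left out. The genes and lists were chosen with earlier results of these data known. Named were all 10 genes, up to 8 pathway genes rising and falling per comparison by adjusted p, HMMR, LYVE1, CEMIP2, UGDH and the antisense genes HAS2-AS1 and VCAN-AS1 whatever their result, the 2 most alike genes of each tested gene with a mean of at least 5 CPM, and 3 checks (CDKN1A, MKI67 and LMNB1). A few genes that this rule names are not reported here and were kept in every count.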

Additional observations from a re-analysis of the deposited data

Results flagged for a closer look

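Within each group of 5 or 6 libraries, a library was singled out where its gap to the nearest other library was a larger part of the group's range than Dixon's 95% critical value. Of 27 group tests over the 9 tested genes, 4 met this, where chance gives about 1 in 20. CEMIP was 575 CPM in week 4 library 6, the lowest of its group, with the others at 769 to 853 CPM. TNFAIP6 was 3.70 CPM in the same library, the highest of its group, with the others at 2.31 to 2.67 CPM. Without that library the week 4 mean was 803 ± 33.1 CPM for CEMIP and 2.50 ± 0.174 CPM for TNFAIP6 (SD, n = 5), and the CEMIP log2 difference was 0.78 against week 0 and -0.54 against week 1. CD44 was 2201 CPM in week 4 library 3, above the others at 2037 to 2075 CPM. TNFAIP6 was 1.45 CPM in week 1 library 4, above the others at 0.763 to 0.997 CPM.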

How the results depend on the processing

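No count of called genes moved by over 1.5 times in the 28 alternatives of each comparison. Leaving out each library in turn gave 6 to 7, 8 to 9 and 7 called hyaluronan genes when week 1 was compared with week 0, week 4 with week 0 and week 4 with week 1, 31 to 35, 30 to 35 and 16 to 22 pathway genes, and 10981 to 11372, 11013 to 11356 and 6218 to 7308 genes in all. Of the results for single hyaluronan genes under an alternative, 718 kept direction and side of the threshold, 29 lost a call and none reversed. The lost calls were VCAN at week 1 (10), HAPLN1 at week 4 against week 0 (18) and HAS3 at week 1 (1). Under the filter of 5 CPM in 5 libraries the low genes had no value. With the replicate number as a block, 11096, 11180 and 6669 genes and 7, 9 and 7 hyaluronan genes were called, and no hyaluronan gene changed its call. The numbers did not pair libraries: over 16 pairs with the same number the correlation of deviations was -0.038 to 0.067, and 1 of 17 libraries correlated best with its own number. Depth limits HAS1, HAPLN1 and HYAL1.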

Other observations

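As a description, the genes whose levels over the 17 libraries were most like those of each hyaluronan gene were ranked by Pearson r of log2(CPM + 0.5), among genes with a mean of at least 5 CPM. The libraries share the 3 groups, so a high r reflects any gene with a like order of groups, and no p is given. CEMIP was most like NF2 (r = 0.990), the merlin gene described above, and the microtubule-associated protein gene MAP1A (0.990), whose means were 325, 869 and 563 CPM at week 0, week 1 and week 4. CD44 was most like VPS53 (0.992) and MARCHF4 (0.991). TNFAIP6 was most like ACAA2 (0.985) and ARL6IP6 (0.981). HYAL2 was most like LSG1 (0.973) and AIFM2 (0.970). VCAN had an r of 0.966 with MAP3K2. HAS2 had an r of 0.928 with NREP, which averaged 23.3, 24.8 and 33.7 CPM. HYAL1 was most like ZDHHC14 (0.909) and UBE2D4 (0.894), and HAS3 like MARCHF3 (0.847) and ARL15 (0.837). HAPLN1, at its low counts, reached only 0.809 with PAFAH2 and 0.753 with RPS6KB2.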
